A study of Mus musculus with 4 samples.

Results

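The genes described here are 10 genes of brain endothelial cells and of the blood-brain barrier, measured by RNA sequencing of mouse embryonic cerebral cortex. They were found by gene symbol among the 26433 genes of the deposited count table, and all 10 were present: Cldn5, Pecam1, Cdh5, Kdr, Flt1, Tek, Slc2a1, Mfsd2a, Abcb1a and Slco1c1. All tissue was embryonic day 15 telencephalon on a C57BL/6 background according to the labels. The cKI f/+ embryos carried a conditional human SERPINA3 allele at Rosa26, in which a CAG promoter and a loxP-flanked stop precede a 3xFlag-tagged coding sequence, together with Nestin-Cre. Founders with the floxed allele had been bred with B6D2F2 mice before the cross to Nestin-Cre, and the wild-type controls were littermates. Nestin-Cre acts in Nestin-positive cells and their progeny, and whether endothelial cells carried the transgene was not measured here. There were 2 cKI libraries (KI2 and KI3) and 2 wild-type libraries (WT1 and WT3), and nothing in the labels says whether a library came from 1 embryo or from pooled embryos.

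The blood-brain barrier is formed by the endothelial cells of brain capillaries. Their tight junctions close the path between cells, their low rate of vesicle transport limits the path through cells, and specific carriers and efflux pumps decide what crosses. During development, vascular endothelial growth factor draws vessels into the neural tube, Wnt ligands from neural progenitors turn on the barrier programme, and pericytes help to maintain it. Endothelial cells are a minor part of the embryonic cortex, so these transcripts were read out of whole tissue, where fewer cells of a type and less RNA per cell cannot be told apart.

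Counts that could be assigned to genes totalled 17423512 to 18119444 per library. Levels are given as CPM, counts in each 1000000 of the scaled library total, and a count of 3 corresponded to 0.166 to 0.172 CPM, which covers counting error only. All 10 genes passed the filter on low counts, as did 15786 genes in all. Xist had 13223 and 11882 reads in the cKI libraries and 5 and 5 in the wild-type libraries, while the Y-linked Kdm5d had 0 and 0 against 951 and 918. For every gene, a difference that goes with this sex-linked expression and one that goes with the genotype cannot be told apart. None of the 10 genes lies on X or Y, but the limit holds for genes on any chromosome. Library KI3 stood apart in choroid plexus transcripts, with 956 reads of the transthyretin gene Ttr against 116 in KI2, 0 in WT1 and 4 in WT3, and values without KI3 are given where they differ in direction. Reads of the human SERPINA3 transgene were not analysed here, so the genotype labels were not checked against it.

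No difference between the genotypes was detected for any of the 10 genes. In edgeR's quasi-likelihood test over all genes, 0 of the 10 had an adjusted p under 0.05, against 0.120% of all tested genes, and 0 had an unadjusted p under 0.05, against 4.60% of all tested genes. DESeq2 and edgeR's likelihood ratio test also called 0 of the 10. The log2 fold change of cKI over WT was above 0 for 4 genes and below 0 for 6, with a median of -0.05, beside 0.0043 over all tested genes. In 4 of the 10 genes the CPM of the cKI libraries did not overlap that of the WT libraries (Cldn5, Cdh5 and Slco1c1 lower in both cKI libraries, Mfsd2a higher), a share of 40% beside 34.1% of all tested genes. Together the 10 genes had 192.0 CPM in KI2 and 213.4 in KI3 against 208.4 in WT1 and 202.6 in WT3, so that the WT libraries lay between the cKI libraries.

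**Figure D1:**
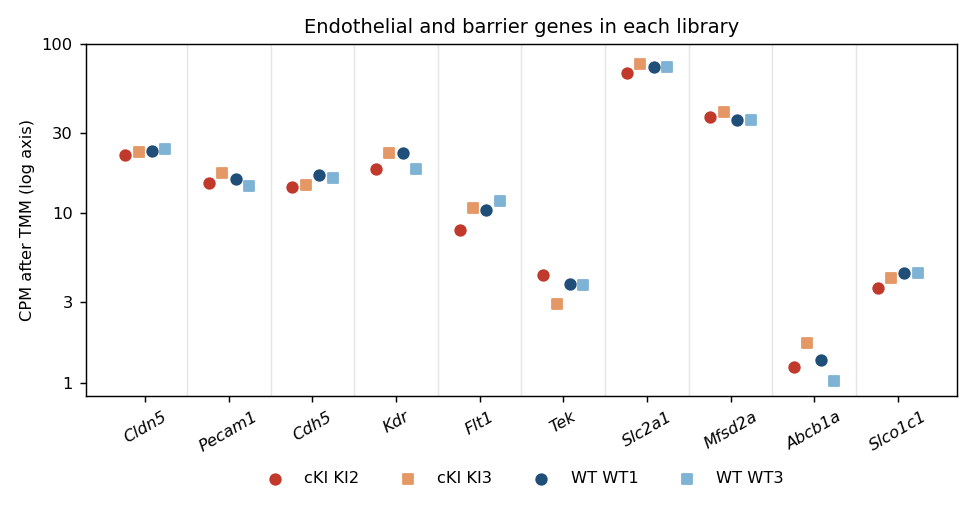
CPM of each gene (vertical axis, logarithmic) in the 4 libraries, with cKI in red and orange and WT in blue, and no error bars because each point is 1 library. The symbols of the genotypes lie close together or overlap for every gene, and the genes themselves span from about 1 CPM for Abcb1a to over 67 CPM for Slc2a1.

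Among the junction genes, Cldn5 encodes claudin-5, the main tight junction protein of brain endothelium (ENSMUSG00000041378, chr16:18776847-18778260, plus strand, GRCm38). It had 391 (KI2) and 419 (KI3) reads in cKI, and 414 (WT1) and 419 (WT3) reads in WT. This corresponded to 22.2 and 23.1 CPM in the cKI libraries and 23.5 and 24.0 CPM in the WT libraries. Both cKI values were below both WT values, by less than 2 CPM at the widest. The means were 22.7 ± 0.655 CPM (SD, n = 2) and 23.8 ± 0.408 CPM (SD, n = 2). On the log2 scale the fold change of Cldn5 was -0.07 (SE 0.11), with a 95% interval from -0.31 to 0.17 and an adjusted p of 0.993.

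Cdh5 encodes VE-cadherin, the adherens junction cadherin of endothelial cells (ENSMUSG00000031871, chr8:104101625-104144511, plus strand). It had 253 (KI2) and 265 (KI3) reads in cKI, and 296 (WT1) and 282 (WT3) reads in WT, or 14.4, 14.6, 16.8 and 16.2 CPM. Again both cKI libraries were below both WT libraries, and the spread within each genotype was small. For Cdh5 the log2 fold change was -0.19 (SE 0.13), with an interval from -0.47 to 0.10. Its unadjusted p of 0.173 was the lowest of the 10 genes and its adjusted p was 0.969. Leaving out any library kept the value between -0.21 and -0.16.

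Pecam1 encodes CD31, an adhesion molecule at endothelial cell contacts (ENSMUSG00000020717, chr11:106654217-106750628, minus strand). It had 267 (KI2) and 312 (KI3) reads in cKI, and 282 (WT1) and 253 (WT3) reads in WT, or 15.2, 17.2, 15.99 and 14.5 CPM. The genotypes overlapped, since KI2 lay between the WT libraries. The log2 fold change was 0.09 (SE 0.14), with an interval from -0.22 to 0.39 and an adjusted p of 0.993. Without KI3 the value was -0.014.

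The receptor genes had a coefficient of variation of CPM over the 4 libraries of 12.2% to 15.6%, and the junction genes 3.35% to 7.62%. Counting alone gives 5.24% for Kdr, 7.42% for Flt1 and 12.3% for Tek, and 4.93% to 6.04% for the junction genes. Counting error thus differed too, most for Tek. Kdr encodes VEGFR2, the main signalling receptor for vascular endothelial growth factor (ENSMUSG00000062960, chr5:75932827-75978458, minus strand). It had 324 (KI2) and 413 (KI3) reads in cKI, and 400 (WT1) and 320 (WT3) reads in WT, or 18.4, 22.8, 22.7 and 18.4 CPM. Each genotype thus had a library near 18 CPM and a library near 23 CPM. The means were 20.6 ± 3.11 CPM in cKI and 20.5 ± 3.05 CPM in WT (SD, n = 2 each). On the log2 scale the fold change of Kdr was 0.0050 (SE 0.15), with an interval from -0.33 to 0.34 and an adjusted p of 0.997. Without KI3 it was -0.16 and without WT3 it was -0.14.

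Flt1 encodes VEGFR1, which binds the same ligand and limits its action on VEGFR2 (ENSMUSG00000029648, chr5:147561604-147726011, minus strand). It had 141 (KI2) and 194 (KI3) reads in cKI, and 186 (WT1) and 205 (WT3) reads in WT, or 8.002, 10.7, 10.5 and 11.8 CPM. KI2 was the lowest library, and KI3 lay between the WT libraries. For Flt1 the log2 fold change was -0.25 (SE 0.18), with an interval from -0.66 to 0.16 and an adjusted p of 0.969. Leaving out each library in turn gave values from -0.48, without KI3, to -0.07, without KI2.

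Tek encodes TIE2, the angiopoietin receptor of endothelial cells (ENSMUSG00000006386, chr4:94739289-94874976, plus strand). It had 76 (KI2) and 53 (KI3) reads in cKI, and 68 (WT1) and 66 (WT3) reads in WT, or 4.31, 2.92, 3.85 and 3.79 CPM. The cKI libraries were the highest and the lowest of the 4, with the WT libraries between them. The log2 fold change was -0.08 (SE 0.25), with an interval from -0.65 to 0.49 and an adjusted p of 0.994. Without KI3 it was 0.17.

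The ligands of these receptors were read from the same libraries and were named after their values were seen. Vegfa, the ligand of VEGFR1 and VEGFR2, had 1148, 1293, 1302 and 1070 reads in KI2, KI3, WT1 and WT3. Vegfb and Pgf, ligands of VEGFR1, had 1036, 1098, 950 and 946 reads and 40, 59, 34 and 44 reads. Vegfc and Vegfd, ligands mainly of VEGFR3, had 82, 132, 116 and 80 reads and 40, 25, 24 and 29 reads. Angpt1, the activating ligand of TIE2, had 52, 63, 44 and 49 reads, and Angpt2, its context-dependent antagonist, had 13, 17, 27 and 14. Vegfb and Angpt1 were higher in both cKI libraries, at 0.14 and 0.28 on the log2 scale. The other 5 overlapped between the genotypes, and of all tested genes 34.1% did not overlap. The adjusted p of the 7 genes was 0.969 or higher.

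Among the transporter genes, Slc2a1 encodes GLUT1, which carries glucose into the brain (ENSMUSG00000028645, chr4:119108711-119137983, plus strand). It had 1191 (KI2) and 1383 (KI3) reads in cKI, and 1298 (WT1) and 1270 (WT3) reads in WT, or 67.6, 76.3, 73.6 and 72.9 CPM. The cKI libraries again enclosed the WT libraries. On the log2 scale the fold change of Slc2a1 was -0.03 (SE 0.09), with an interval from -0.22 to 0.17, which is the narrowest of the 10 genes, and the adjusted p was 0.994. Without KI2 the value was 0.05. GLUT1 is not limited to endothelium in the embryo, and at this stage neural progenitors and choroid plexus express it too. Choroid plexus markers summed to 14.98 CPM in KI2 and 76.8 CPM in KI3, the library with more Slc2a1, and their part in the Slc2a1 count was not tested.

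Mfsd2a encodes the carrier of lysophospholipids that contain docosahexaenoic acid and keeps vesicle transport across brain endothelium low (ENSMUSG00000028655, chr4:122946850-122961188, minus strand). It had 654 (KI2) and 723 (KI3) reads in cKI, and 629 (WT1) and 619 (WT3) reads in WT, or 37.1, 39.9, 35.7 and 35.5 CPM. Both cKI libraries were above both WT libraries, and KI2 was the nearer of them. The means were 38.5 ± 1.96 CPM in cKI and 35.6 ± 0.0949 CPM in WT (SD, n = 2 each). For Mfsd2a the log2 fold change was 0.11 (SE 0.10), with an interval from -0.10 to 0.33 and an adjusted p of 0.975. Without KI3 it was 0.06.

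Slco1c1 encodes OATP1C1, the thyroxine carrier (ENSMUSG00000030235, chr6:141524368-141570177, plus strand). It had 64 (KI2) and 75 (KI3) reads in cKI, and 79 (WT1) and 78 (WT3) reads in WT, or 3.63, 4.14, 4.48 and 4.48 CPM. Both cKI libraries were lower, with KI3 closer to the WT libraries than KI2. The log2 fold change was -0.20 (SE 0.21), with an interval from -0.69 to 0.28 and an adjusted p of 0.987.

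Abcb1a encodes the P-glycoprotein of mouse brain capillaries, which pumps drugs back into the blood (ENSMUSG00000040584, chr5:8660077-8748575, plus strand). It had 22 (KI2) and 31 (KI3) reads in cKI, and 24 (WT1) and 18 (WT3) reads in WT, or 1.25, 1.71, 1.36 and 1.03 CPM. The exact 95% Poisson interval of the count was 13.8 to 33.3 in KI2 and 10.7 to 28.4 in WT3, so the libraries could not be separated at this depth. On the log2 scale the fold change of Abcb1a was 0.31 (SE 0.37), with the widest interval of the 10 genes, from -0.52 to 1.13, and an adjusted p of 0.990. Its paralog Abcb1b had 3, 4, 6 and 6 reads. Of the 31-base words in the Abcb1a transcript 21.7% also occur in Abcb1b, so the split of reads between them is uncertain. With the reads of both genes added, the log2 fold change was 0.12.

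**Figure D2:**
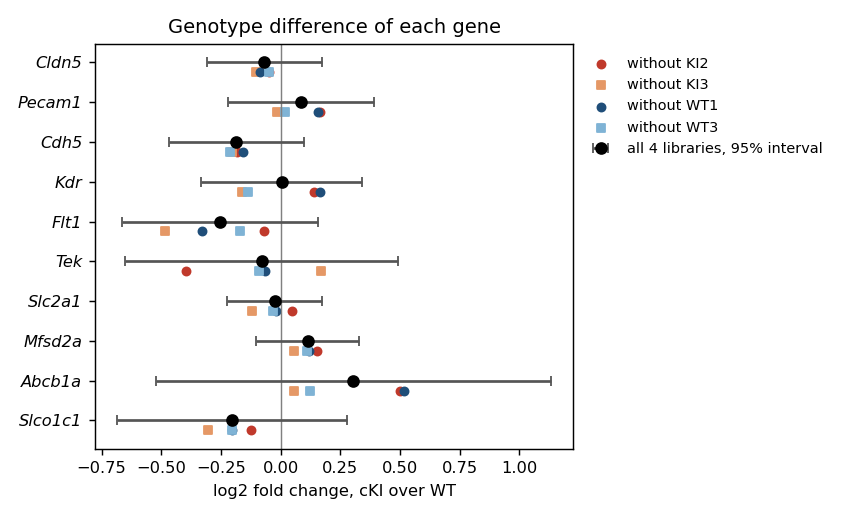
Log2 fold change of cKI over WT for each gene (horizontal axis), with 95% intervals from edgeR and the values with each library left out in turn. Every interval includes 0. Kdr, Pecam1, Slc2a1 and Tek have a value on the other side of 0 when a library is left out.

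The intervals set what these libraries could show. For 6 genes (Cldn5, Pecam1, Cdh5, Kdr, Slc2a1 and Mfsd2a) the 95% interval stayed within 0.5 on the log2 scale in both directions, while those of Flt1, Tek, Abcb1a and Slco1c1 reached past it. As a fold of cKI over WT, Cldn5 lay between 0.807 and 1.13, Slc2a1 between 0.856 and 1.13, and Abcb1a between 0.696 and 2.19. Without KI3 the log2 fold changes not given above were -0.10 for Cldn5, -0.20 for Cdh5, -0.12 for Slc2a1, -0.31 for Slco1c1 and 0.06 for Abcb1a. For 6 of the 10 genes the genotype difference was smaller than the larger of the differences between libraries of the same genotype. A difference of means varies less than a difference of single libraries, so this count says nothing of the size of a genotype difference. Its share over all tested genes is not given. In 9 of the 10 genes CPM was higher in KI3 than in KI2, Tek being the exception, with a median log2 difference of 0.18. Over all tested genes 49.7% were higher in KI3 than in KI2.

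The spread over the 4 libraries was close to that of counting alone for some genes and above it for most. Cldn5 varied by 3.35% (coefficient of variation of CPM) where counting alone gives 4.93%, Slco1c1 by 9.55% against 11.6%, and Abcb1a by 21.1% against 20.5%. Kdr varied by 12.2% against 5.24%, Flt1 by 15.6% against 7.42% and Slc2a1 by 5.02% against 2.79%. In all, 8 of the 10 genes spread more widely than counting alone gives, Cldn5 and Slco1c1 being the exceptions. The same libraries, KI2 and WT3, were low for Kdr, whereas Flt1 was highest in WT3.

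Levels can be compared between genes only per length, and as CPM per kilobase of exon the 10 genes fell into steps. The length was that of all annotated exons of a gene together, 9.03 kilobases for Kdr and 13.5 for Flt1. It can exceed the length of the transcripts present, so the steps depend on the annotation. Slc2a1 was highest at 20.7, averaged over the 4 libraries. Mfsd2a at 16.5 and Cldn5 at 16.4 followed, and their ranges over libraries overlapped. Cdh5 stood alone at 3.68. Pecam1 at 2.52 and Kdr at 2.28 overlapped each other. Slco1c1 at 0.806, Tek at 0.789 and Flt1 at 0.759 could not be ordered, and Abcb1a was lowest at 0.244, below every library of the other genes. By this measure the glucose carrier, the lipid carrier and claudin-5 were each higher than the receptors, the drug efflux pump and the thyroxine carrier in every library.

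The transporter genes were next set against the other members in the same library. Those include the tight junction gene Cldn5, so the ratio does not divide barrier genes from the rest. A ratio with Cldn5 on the transporter side was not tested. The summed CPM of Slc2a1, Mfsd2a, Abcb1a and Slco1c1, divided by that of Pecam1, Cdh5, Kdr, Flt1, Tek and Cldn5, was 1.33 in KI2 and 1.34 in KI3 against 1.23 in WT1 and 1.28 in WT3. The ratio was higher in both cKI libraries, by 1.06-fold. A two-sided exact permutation test gave p = 0.333, the smallest value that 2 libraries against 2 allow, so the design cannot reach 0.05 here. On the log2 scale the difference was 0.08, and it was 0.05 without WT1, 0.15 without Slc2a1 and 0.04 without Mfsd2a. Without Mfsd2a, and with the other pan-endothelial genes as the denominator, the libraries of the genotypes overlapped and the same exact permutation test gave p = 0.667. Slc2a1 and Mfsd2a supplied 35.6% and 18.2% of the CPM of all 10 genes, and the ratio is mostly a measure of them.

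The start regions of the genes differ in base composition, and 4 are shown because they include carrier genes at high and at low level and the only receptor start region with the ETS core AGGAAG. The sequences are RefSeq promoters on GRCm38.p6, running from 250 bases before to 50 bases after the annotated start, 5′ to 3′ on the strand of the gene. Capitals mark the ETS core AGGAAG and the hypoxia response core ACGTG on either strand, and adjacent matches may overlap. The windows are chr4:119108495-119108794 (plus) for Slc2a1, chr4:122961139-122961438 (minus) for Mfsd2a, chr6:141524104-141524403 (plus) for Slco1c1 and chr5:147725962-147726261 (minus) for Flt1.
Slc2a1: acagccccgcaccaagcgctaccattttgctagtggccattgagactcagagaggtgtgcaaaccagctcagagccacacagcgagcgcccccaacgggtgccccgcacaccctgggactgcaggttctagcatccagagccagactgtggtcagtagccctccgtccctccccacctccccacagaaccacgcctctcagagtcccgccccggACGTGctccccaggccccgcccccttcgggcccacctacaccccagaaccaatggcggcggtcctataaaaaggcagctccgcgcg
Mfsd2a: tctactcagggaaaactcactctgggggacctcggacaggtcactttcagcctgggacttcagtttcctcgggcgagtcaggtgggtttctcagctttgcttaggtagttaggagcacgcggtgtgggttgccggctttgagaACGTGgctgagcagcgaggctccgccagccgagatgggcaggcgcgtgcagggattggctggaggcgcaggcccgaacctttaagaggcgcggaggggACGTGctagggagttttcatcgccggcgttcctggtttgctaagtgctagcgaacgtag
Slco1c1: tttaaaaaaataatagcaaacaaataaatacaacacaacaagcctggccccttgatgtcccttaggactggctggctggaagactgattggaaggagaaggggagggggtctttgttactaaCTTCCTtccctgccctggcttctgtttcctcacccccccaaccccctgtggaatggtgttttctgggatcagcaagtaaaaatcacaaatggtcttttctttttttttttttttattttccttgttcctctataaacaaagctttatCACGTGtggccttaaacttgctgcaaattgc
Flt1: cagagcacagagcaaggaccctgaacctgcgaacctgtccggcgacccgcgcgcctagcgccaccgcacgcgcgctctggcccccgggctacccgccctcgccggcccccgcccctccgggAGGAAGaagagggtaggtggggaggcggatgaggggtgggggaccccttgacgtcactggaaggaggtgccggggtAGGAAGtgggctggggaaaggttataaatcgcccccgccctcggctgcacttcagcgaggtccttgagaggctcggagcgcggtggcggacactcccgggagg

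Of the 10 genes 8 had a RefSeq promoter, and that of Abcb1a lies far upstream of the gene start in the count table. The Slc2a1, Mfsd2a and Flt1 windows hold 18, 22 and 29 CG pairs and the Slco1c1 window holds 1. Of the windows not shown, that of Kdr holds 19, that of Cldn5 12 and that of Tek 3, so the number of CG pairs did not follow the order of the levels per kilobase. GC content was 65.3%, 60.3%, 70.7% and 42.0% for Slc2a1, Mfsd2a, Flt1 and Slco1c1, beside a median of 52.7% over all promoters. The ETS core AGGAAG, the core bound by the factor family that includes ERG and FLI1 of endothelial cells, occurred in 3 of the 8 windows (Flt1, Slco1c1 and Abcb1a), and in 35.4% of all promoters. ACGTG occurred in 3 of 8 (Slc2a1, Mfsd2a and Slco1c1) and in 19.6% of all promoters. The TCF/LEF core CTTTGA, a target motif of Wnt signalling, occurred in 2 of 8 (Mfsd2a and Abcb1a) and in 16.003% of all promoters. ATTGTT, the core of SOX factors, was present in the Tek window alone and in 10.7% of all promoters. The motif of GATA factors, AGATAA, was likewise present in the Tek window alone and in 11.2% of all promoters. The longer ETS core, CCGGAAG, was present in 0 of the 8 windows and in 8.86% of all promoters. A match describes the letters of a window and says nothing of binding.

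Around the 10 genes, 226 genes in 10 lists of vascular function were examined, of which 202 were tested and 0 were called. With an unadjusted p under 0.05 there were 10 of the 202, a share near the 4.60% of all tested genes. Of the 202 genes 97 log2 fold changes were above 0 and 105 below, and the median was -0.01. The genotypes did not overlap in 32.7% of the 202 genes, beside 34.1% of all tested genes. By list this share ran from 20% for basement membrane genes to 57.1% for the Notch list. For none of the lists is a shift of the list claimed, and all values are log2 fold changes of cKI over WT.

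The pan-endothelial list without the 10 genes had 29 tested members, of which 7 were above 0 and 22 below, with a median of -0.07. Their summed level was 223.3 CPM in KI2 and 229.3 in KI3 against 231.8 in WT1 and 239.9 in WT3, so both cKI libraries were below both WT libraries, by 0.06 on the log2 scale. Of these 29 genes 20.7% did not overlap between genotypes, beside 34.1% of all tested genes. The extremes were Clec14a, an endothelial surface lectin, at 0.28 with 27, 40, 16 and 38 reads, and Icam2, an endothelial adhesion molecule, at -0.45 with 20, 33, 32 and 39 reads in KI2, KI3, WT1 and WT3.

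In the list of VEGF and angiopoietin signalling 10 of 19 genes were above 0. Nrp2, a coreceptor for VEGF-C and for semaphorins, was at 0.37 with an unadjusted p of 0.0212 and an adjusted p of 0.969, from 1737, 2248, 1341 and 1681 reads. Sema3e, a repulsive ligand of vessels and axons, was lowest at -0.77 from 23, 14, 37 and 25 reads.

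The Wnt list holds the ligands and receptors that induce the barrier, and 12 of its 24 tested genes were above 0. The ligand genes were named after their values were seen. Wnt7a had 769, 801, 776 and 770 reads, and Wnt7b had 7222, 6639, 6191 and 6547 reads in KI2, KI3, WT1 and WT3, with log2 fold changes of -0.01 and 0.10. Ndp, which encodes the ligand norrin, had 82 and 94 reads in cKI and 66 and 67 in WT, higher in both cKI libraries, at 0.38 with an adjusted p of 0.969. Reck, which with Gpr124 passes the Wnt7 signal on in endothelial cells, was at -0.34 with an unadjusted p of 0.0469 from 173, 164, 207 and 213 reads. Tnfrsf19, a Wnt target that neural progenitors also express, was at 0.28 with an unadjusted p of 0.00712 and an adjusted p of 0.881 from 1872, 2111, 1648 and 1573 reads. Sp5 was highest at 0.69 from 69, 134, 31 and 92 reads.

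In the list of Notch signalling and arteriovenous identity 16 of 21 genes were above 0, with a median of 0.11, and 57.1% did not overlap between genotypes, beside 34.1% of all tested genes. Hey2, a Notch effector of arterial cells, was at 0.49 with an unadjusted p of 0.0263 from 161, 142, 97 and 114 reads. Id3, a target of BMP signalling, was at 0.39 (unadjusted p 0.0310) from 349, 375, 231 and 309 reads. Unc5b, a netrin receptor of arterial tip cells, was at 0.23 (unadjusted p 0.0471) from 539, 557, 471 and 447 reads. All 3 had an adjusted p of 0.969 and all are also expressed outside vessels. Nr2f2, the venous regulator COUP-TFII, was highest at 0.52, but it had 595 and 1354 reads in the cKI libraries and 331 and 993 in the WT libraries. It was at -0.17 without KI3, at -0.07 without WT1 and at 1.53 with an adjusted p of 0.0256 without WT3. Notch4, the endothelial Notch receptor, was lowest at -0.18 from 238, 227, 268 and 250 reads. Which cells of the tissue the reads of this list came from, those of Nr2f2 included, was not determined.

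Of 21 tested junction genes 9 were above 0. Ocln, the tight junction protein occludin, was lowest of all vascular genes tested at -0.86 with 11, 13, 19 and 24 reads and an unadjusted p of 0.0622. Marveld3, a related membrane protein of tight junctions, was highest at 0.57 with 17, 27, 17 and 12 reads.

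Of 36 tested transporter and receptor genes 16 were above 0, and Abcb1a was highest. Slc22a8, the organic anion transporter OAT3, was lowest at -0.78 with an unadjusted p of 0.0406 from 23, 19, 37 and 34 reads. Slc39a8, the metal ion carrier ZIP8, was at -0.45 with an unadjusted p of 0.0349 from 98, 92, 129 and 126 reads. Both had an adjusted p of 0.969, and in both the cKI libraries lay below the WT libraries. Of the 36 genes 22.2% did not overlap between genotypes, beside 34.1% of all tested genes.

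Of 11 tested genes of transcytosis and leakage 9 were above 0, with a median of 0.10. Cav1, the coat protein of caveolae, was highest at 0.38, with 288 and 408 reads in cKI and 190 and 334 in WT, so the genotypes overlapped. Icam1, an adhesion molecule for leukocytes, was lowest at -0.54 from 7, 21, 23 and 17 reads.

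The pericyte and mural list had 5 of 16 tested genes above 0 and a median of -0.19. Rgs5, a regulator of G protein signalling and a marker of brain pericytes, was at -0.40 (SE 0.10) from 524, 495, 672 and 648 reads, with an unadjusted p of 0.00275 and an adjusted p of 0.667, the lowest adjusted p of the vascular lists. Both cKI libraries had fewer Rgs5 reads than both WT libraries. Ebf1, a transcription factor whose expression is not limited to pericytes, was at -0.60 (unadjusted p 0.0406) from 56, 75, 81 and 113 reads. Anpep, the pericyte peptidase CD13, was highest at 0.85 from 28, 20, 13 and 13 reads, and Higd1b was lowest at -0.71 from 7, 6, 10 and 11 reads. Of the 16 tested genes 8 did not overlap between genotypes, beside 34.1% of all tested genes. Further genes of the list were named after their values were seen. Pdgfrb, the PDGF-B receptor of pericytes, at -0.20 and Vtn, vitronectin, at -0.19 were also lower in both cKI libraries. So were Kcnj8 and Abcc9, subunits of the ATP-sensitive potassium channel of pericytes, at -0.42 and -0.34. These genes had an adjusted p of 0.969 or higher. The remaining tested genes overlapped between the genotypes. Below 0 were Cspg4 at -0.07, Ndufa4l2 at -0.08, Foxc1 at -0.49 and Foxf2 at -0.20. Above 0 were Pdgfb at 0.03, Mcam at 0.04, Notch3 at 0.05 and Zic1 at 0.21. The summed level of the list was 264.8 CPM in KI2 and 307.3 in KI3 against 298.8 in WT1 and 282.8 in WT3, so the genotypes overlapped. Notch3, Zic1 and Mcam, which cells other than pericytes also express, made up most of it. Which cells the reads of this list came from, those of Rgs5 and Ebf1 included, was not determined. Zic1 alone had 56.8 and 85.8 CPM in KI2 and KI3 and 62.8 and 60.5 CPM in WT1 and WT3.

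Of 15 tested basement membrane genes 7 were above 0, between Lama4, a laminin chain of vessels, at -0.24 and Nid2, a nidogen, at 0.28. Of 17 tested hypoxia response genes 8 were above 0, between Adm, the vasoactive peptide adrenomedullin, at -0.69 and Car12, a carbonic anhydrase, at 0.26. Neither list had a gene with an unadjusted p under 0.05.

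**Figure D3:**
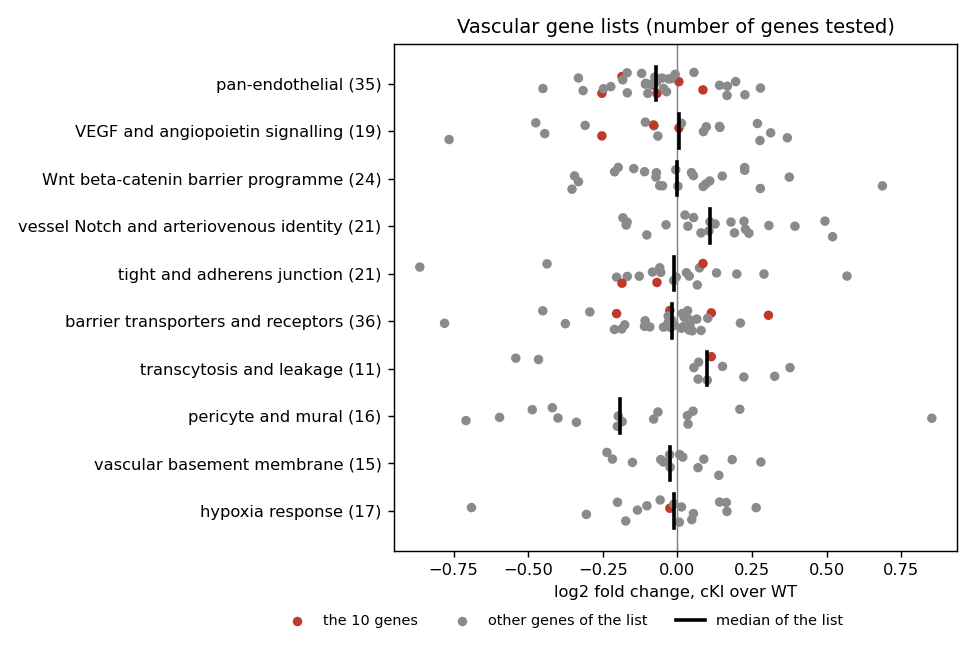
Log2 fold change of cKI over WT (horizontal axis) for every tested gene of the vascular lists, with 1 row per list and the median marked. The medians lie between -0.19 for the pericyte and mural list and 0.11 for the Notch list.

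Endothelial transcripts other than the 10 genes were read in every library (29 tested genes, above), which does not say which cells the reads of the 10 genes came from. Markers of other cells that the dissection can hold were read beside it. Choroid plexus markers, which epithelium next to the cortex expresses, summed to 14.98 CPM in KI2 and 76.8 in KI3 against 6.69 in WT1 and 10.7 in WT3, with all 6 tested genes above 0 and 3 with an unadjusted p under 0.05. Meningeal fibroblast markers summed to 77.2 and 81.4 CPM in cKI and 52.0 and 62.6 CPM in WT, and 6 of 8 tested genes had an unadjusted p under 0.05. In that list the collagen gene Col1a1, named after its values were seen, had 82, 64, 10 and 28 reads. Blood markers summed to 511.2 CPM in KI2 and 385.8 in KI3 against 510.0 in WT1 and 541.3 in WT3. Of the 10 tested blood genes 9 were below 0 and 3 had an unadjusted p under 0.05. Microglia and macrophage markers summed to between 38.4 and 43.6 CPM, and 1 of 11 tested genes had an unadjusted p under 0.05. Meninges and choroid plexus have vessels of their own, so their reads can enter the endothelial counts, and their part in the values of the 10 genes was not tested. No gene of these marker lists was called either.

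**Figure D4:**
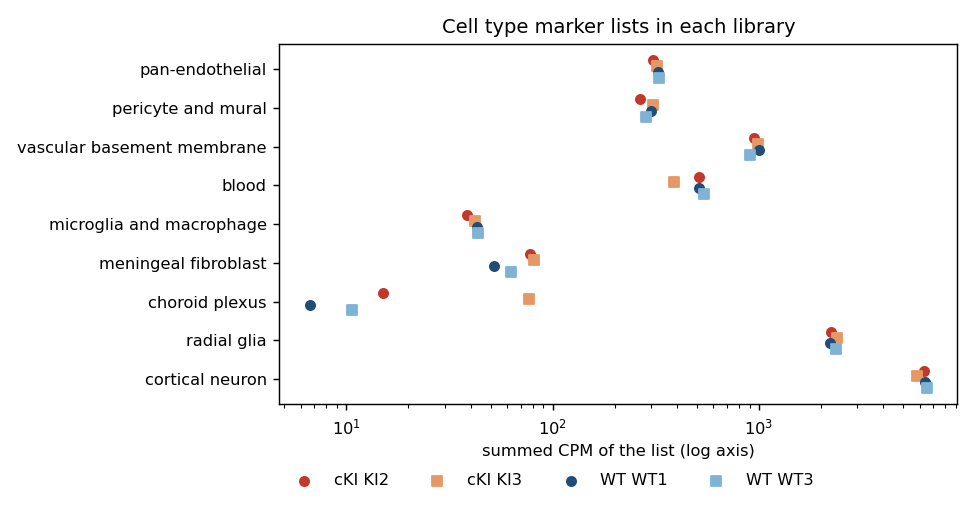
Summed CPM (horizontal axis, logarithmic) of each cell type marker list in the 4 libraries. The choroid plexus list spreads from 6.69 to 76.8 CPM with KI3 highest, the meningeal list is higher in both cKI libraries, and the pan-endothelial list, which includes 6 of the 10 genes, stays between 305.7 and 328.6 CPM.

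Reads of overlapping genes could also enter a count, since the sources used here do not say whether strand was used. Of the 10 genes only Slc2a1 overlaps other genes of the table, the antisense Gm12868 with 8, 5, 5 and 5 reads and Gm12867 with 3, 7, 9 and 9 reads, and Mir1957a with 1, 3, 1 and 3 reads.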

How the data were processed

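The deposited values are unnormalized counts of reads for each gene, made, per the submitters' processing notes, with Bowtie2 2.2.3, TopHat2 2.0.12 and HTSeq 0.6.0. Those notes name mm9, but the table places genes on GRCm38 (the same as in GENCODE M21 for 9 of the 10 genes, Cldn5 excepted). The table's comparison columns (mean, fold change, p-values, significance) were not used. Column numbers did not match the sample labels, so columns were assigned to genotype only. Where nothing says that libraries are separate embryos, p-values measure the spread between libraries.

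Genes were filtered with filterByExpr, scaled by TMM and tested with the quasi-likelihood test of edgeR 4.0.16 (limma 3.58.1, R 4.3.3), with Benjamini-Hochberg adjustment over all 15786 tested genes and a threshold of 0.05. CPM used the TMM-scaled library totals. Intervals are 95%. The script was tested on simulated data. In each vascular list the genes named were those with p under 0.05 and those with the highest and lowest log2 fold change; 4 listed vascular genes had no row in the table. A gene that this rule names is not reported here. The rule for the 10 genes is a list of symbols and uses no measured value, but members and lists were chosen with earlier results of these data known. Alternatives were DESeq2 1.42.0, other scalings, filters and tests, and leaving out each library.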

Additional observations from a re-analysis of the deposited data

How the results depend on the processing

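Of the 10 endothelial and barrier genes, 0 were called by any alternative. Over all genes, 19 were called by the test as reported, 11 after removal of X and Y genes, 54 by edgeR's likelihood ratio test, 6 under a minimum of 10 counts per library, 726 at an unadjusted p under 0.05, and 46 to 71 with a library left out. Of the vascular lists 0 genes were called, 10 at an unadjusted p under 0.05 and 0 to 1 with a library left out (1 without WT3, Nr2f2). The cause was not tested. Direction turned for Pecam1 (-0.014 to 0.16 with a library left out, negative without KI3), Kdr (-0.00023 with scaling to library size only, -0.00081 with a filter of 1 count, and -0.16 to 0.17 with a library left out), Tek (-0.40 to 0.17, positive without KI3) and Slc2a1 (0.033 when scaled to pan-endothelial counts, and -0.12 to 0.049 with a library left out, positive without KI2). With a library left out, the lone library of a genotype was assumed to vary like the other genotype. The number of genes without overlap, 4, was 3 on raw counts and 3 when scaled to pan-endothelial counts, alternatives chosen after seeing the data. No paired analysis was possible because the sample labels of the genotypes share no replicate number and the count columns could not be matched to labelled samples. The shared number of columns KI3 and WT3 is thus not known to mark a pair. With 18 to 31 reads of Abcb1a per library, counting error limits that gene most.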
